A study of Mus musculus with 6 samples.

Results

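The 34 genes described here are enzymes of glycolysis and genes of the hypoxia pathway, picked by gene symbol under a rule that uses no measured value. All 34 were found among the 46983 genes of the deposited count table, and all 34 passed the filter on low counts. They were measured in polyadenylated RNA of isolated mouse pancreatic islets, in 3 libraries of islets held for 24 h in CMRL culture medium at a stimulating (high) glucose concentration and 3 libraries of islets held as long at a non-stimulating (low) concentration. Both groups were of wild type genotype, and the comparison asks how islet transcripts follow the glucose of the medium. The sources used here do not give the glucose concentrations, the strain, or the age and number of animals. They do not say either whether replicates were separate islet preparations, so each p-value reflects variation among these libraries alone, and that variation may be technical.

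Glycolysis splits glucose into pyruvate. Phosphofructokinase (PFK) commits sugar to the pathway and is stimulated by fructose 2,6-bisphosphate, which the bifunctional PFKFB enzymes both make and destroy. Beta cells of the islet burn glucose through this pathway to raise ATP, which closes potassium channels and starts insulin secretion. The hypoxia-inducible factors (HIF) pair an oxygen-labile alpha subunit with the stable subunit encoded by Arnt. In oxygenated cells the EGLN prolyl hydroxylases mark the alpha subunit and the von Hippel-Lindau protein sends it for degradation, so HIF activity is controlled largely at the protein level, which transcript counts do not measure. When the alpha subunit persists, HIF raises transcription of most glycolytic enzymes and of genes for angiogenesis, mitophagy and collagen modification.

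Library totals were 10596020 to 15846235 counts. The labels give the material as beta cells and pancreatic islets, yet genes of acinar cells, the enzyme-secreting cells around islets, took 12.6 to 25.0% of counts in high-glucose libraries and 48.9 to 64.7% in low-glucose libraries, with 23 of 26 acinar markers lower. Markers of intestinal epithelium were lower for 12 of the 12 tested, with summed levels of 159 to 227 CPM (counts scaled to a library of 1e+06, on sizes adjusted by the TMM method) in high-glucose islets and 2121 to 6136 CPM in low-glucose islets. Of 12 duct cell markers 5 were higher and 2 lower, and the list's median log2 fold change was -0.27. Its sum was nevertheless higher, at 4603 to 7975 CPM at high and 912 to 1345 CPM at low glucose. The beta cell list had 7 of 12 members lower (58.3%) and the alpha and delta cell list 1 of 7 (14.3%). Over all tested genes 13.3% were called higher and 14.2% lower, a background for each of these lists. With library totals 4 of the 12 beta cell markers were lower (33.3%) and 1 higher (8.33%), beside 4.49% and 59.6% of all tested genes. As shares of counts, the beta cell list took 2.44 to 7.13% at high and 1.53 to 3.27% at low glucose. Summed macrophage and leukocyte markers reached 95.0 to 514 CPM at high and 633 to 692 CPM at low glucose (2 of 13 higher, 1 lower). Those of pericytes, stellate cells and fibroblasts reached 50.1 to 288 CPM at high and 330 to 432 CPM at low glucose (4 of 12 lower). As shares of counts both lists overlapped between the groups. The first took 0.0130 to 0.0917% at high and 0.0359 to 0.0615% at low glucose, and the second 0.00685 to 0.0514% and 0.0187 to 0.0379%. No list had a marker at 0 in all 6 libraries. High-glucose replicate 1 stood apart from the other two of its group on the second principal component, and the hormone and granule genes took 11.1% of its counts, against 4.16 and 4.79% in the other two. The part of these cell types in the results was not tested.

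At high glucose 12 of the 34 genes rose and 3 fell, while 19 did not pass the threshold of an adjusted p under 0.05 in edgeR's quasi-likelihood test. That is 35.3% higher and 8.82% lower, where 13.3% of the 13996 tested genes were called higher and 14.2% lower. On the enzyme side, 8 of 14 genes of glycolysis and glycogen rose, 2 fell and 4 did not pass. Among the 7 HIF subunits, oxygen sensors and Vhl, 1 rose, 1 fell and 5 did not pass, and of the 13 HIF targets 3 rose and 10 did not pass. The 34 genes had a median log2 fold change of 0.47, beside 0.01 over all tested genes. In 15 of the 34 (44.1%) the libraries of the groups did not overlap with high above low, and in 4 (11.8%) with high below low, beside 23.5% and 22.4% of tested genes.

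These counts depend on how the libraries are scaled to one another. Scaled to library totals, 28 of the 34 genes were called higher and 0 lower, but 59.6% of all tested genes were then higher and 4.49% lower, and the median of all genes moved to 1.16. Of the 19 genes that did not pass with TMM, all but Pfkm, Egln3 and Car9 passed with library totals. Totals without the acinar genes gave 13 higher and 2 lower (22.3% and 9.98% of tested genes), scaling to 20 hormone and granule genes 10 and 2 (7.26% and 7.55%), and DESeq2 size factors 12 and 3 (13.1% and 14.3%). With TMM scaling and the replicate number as a block the counts were 16 and 4 (15.7% and 17.7%), by limma-voom 11 and 3 (10.7% and 14%), and by DESeq2 13 and 4 (15.6% and 16.8%). The 12 genes that rose kept a positive difference under each of the 4 other scalings. Library totals, totals without acinar genes and hormone and granule gene scaling also shift the median of all genes upwards (1.16, 0.24 and 0.28). A kept positive sign therefore says little there. Of the 15 calls, 7 (Pfkl, Pfkfb3, Pgk1, Pgam1, Eno1, Hif1a and P4ha2) held in every one of the 15 alternatives, which vary the scaling, filter, test and replicate block or leave out 1 library. Epas1 and Pfkfb4, which fell, each held in 14 of the 15 and lost the call with library totals alone. Library totals kept all 12 rises and called 0 of the 34 genes lower, with 59.6% of tested genes higher. Holding in every alternative therefore does not set rises and falls on equal terms. With low-glucose replicate 2 or high-glucose replicate 3 left out, 7 of the 34 genes were called higher in either case and 2 lower. Calls over all tested genes were fewer there too, at 5.15% higher and 7.43% lower without low-glucose replicate 2, and 5.79% higher and 7.87% lower without high-glucose replicate 3.

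**Figure D1:**
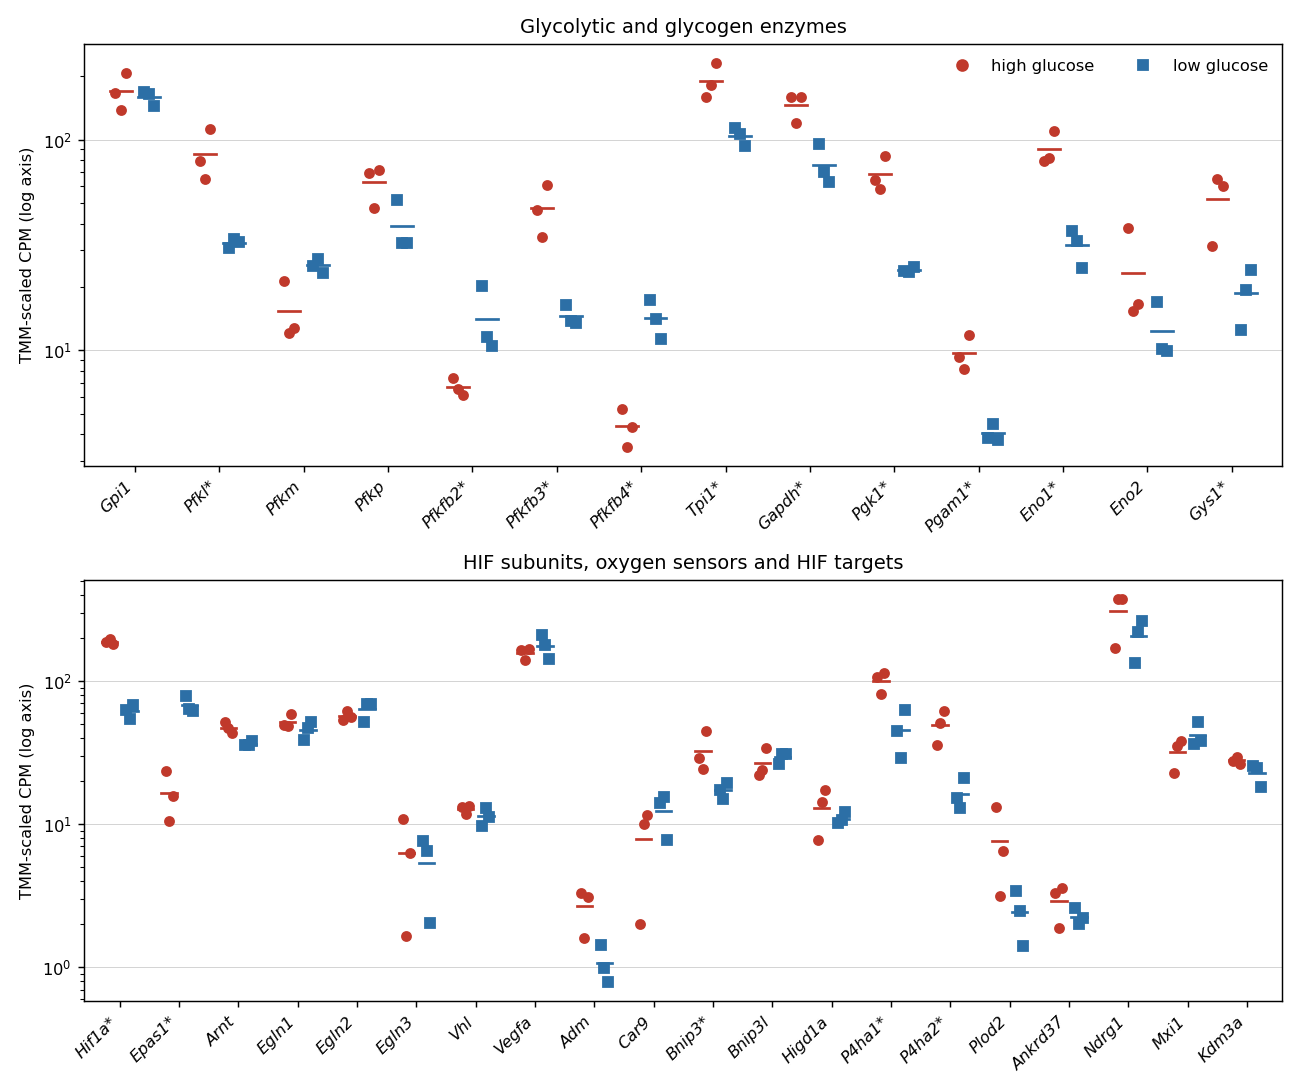
Level of each of the 34 genes in each library, in TMM-scaled CPM on a log axis; red circles are high-glucose islets, blue squares low-glucose islets, horizontal lines group means, and an asterisk marks an edgeR adjusted p under 0.05. Hif1a, Pfkl and Pgk1 show high-glucose libraries well above low-glucose ones, Epas1 and Pfkfb4 the opposite, and Vegfa and the Egln genes overlap.

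Of the 3 phosphofructokinase subunit genes 1 rose and 2 did not pass. Values are given in the order of replicates 1, 2 and 3. The liver-type subunit gene Pfkl (chr10:77986947-78010083 on GRCm38, minus strand) had 79.2, 64.9 and 112 CPM in high-glucose islets, against 30.5, 33.9 and 32.7 CPM in low-glucose islets. Every high-glucose library lay above every low-glucose library. Pfkl rose by 1.40 ± 0.22 on the log2 scale (edgeR adjusted p = 0.00443), 2.64-fold. In bulk RNA such a difference cannot be told apart into more cells of a type and more RNA per cell.

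The muscle-type subunit gene Pfkm had 21.3, 12.1 and 12.8 CPM in high-glucose islets, against 25.2, 27.3 and 23.4 CPM in low-glucose islets. Each high-glucose library was below each low-glucose library, with replicate 1 the highest at high glucose. Its log2 fold change of -0.71 ± 0.24 did not pass (edgeR adjusted p = 0.0645). With the replicate number as a block it passed (-0.75, edgeR adjusted p = 0.0383), as it did by DESeq2 (-0.72, DESeq2 adjusted p = 0.0440) and without high-glucose replicate 1 (-1.02), and with library totals the value was 0.48. The platelet-type subunit gene Pfkp had 69.4, 47.7 and 71.6 CPM in high-glucose islets, against 51.9, 32.2 and 32.2 CPM in low-glucose islets. Its groups met at high-glucose replicate 2 and low-glucose replicate 1, and the difference of 0.69 ± 0.25 did not pass (edgeR adjusted p = 0.0749). It passed with the replicate block (0.71, edgeR adjusted p = 0.0276), with no filter (0.79) and without low-glucose replicate 1 (0.97). Pfkp shares 748 exonic bases with Pitrm1 on the opposite strand, and the sources used here give no strand setting for the counting.

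Within a library, the share of each subunit does not depend on the scaling between libraries. Of PFK subunit transcripts per length, Pfkl took 50.7, 57.5 and 64.7% in high-glucose islets, against 28.6, 32.5 and 34.2% in low-glucose islets. Pfkm took 27.2, 21.5 and 14.7% in high-glucose islets, against 47.2, 52.2 and 48.99% in low-glucose islets. Pfkl was thus the most abundant subunit gene per length in each high-glucose library and Pfkm in each low-glucose library, without overlap. The rank of Pfkm rests on the merged exon lengths, 3340 bases for Pfkm, 6675 for Pfkl and 13401 for Pfkp. In low-glucose counts Pfkm was the lowest, at 301, 164 and 149. Pfkl had 364, 204 and 208 counts there, and Pfkp 620, 194 and 205. The Pfkp share did not separate the groups, at 21.2% ± 0.7996 in high-glucose islets and 18.8% ± 4.76 in low-glucose islets (SD, n = 3 each). A two-sided exact permutation test of 3 against 3 cannot go below p = 0.10, and it gave that value for both Pfkl and Pfkm (0.162 adjusted over the 13 shares computed). Gpi1, the isomerase one step before PFK, had 167, 138 and 207 CPM in high-glucose islets, against 168, 165 and 144 CPM in low-glucose islets. The groups overlapped, and its log2 fold change was 0.10 ± 0.20 (edgeR adjusted p = 0.725).

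The PFKFB enzymes, which set the fructose 2,6-bisphosphate signal to PFK, changed in opposite directions. Pfkfb3 (chr2:11471433-11554077, minus strand), the inducible isoform with high kinase activity, had 46.6, 34.6 and 61.1 CPM in high-glucose islets, against 16.5, 13.8 and 13.5 CPM in low-glucose islets. Every high-glucose library was at least as high as 34.6 CPM and no low-glucose library exceeded 16.5 CPM. Pfkfb3 rose by 1.69 ± 0.23 (edgeR adjusted p = 0.00278), 3.24-fold, which placed it above 96.3% of tested genes in log2 fold change.

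Pfkfb4 (chr9:108991778-109032228, plus strand), an isoform that is also known as a hypoxia-inducible gene, had 5.27, 3.49 and 4.33 CPM in high-glucose islets, against 17.3, 14.1 and 11.3 CPM in low-glucose islets. All high-glucose values were below all low-glucose values. It fell by 1.71 ± 0.25 on the log2 scale (edgeR adjusted p = 0.00367), 3.27-fold lower than in low-glucose islets, and its call was lost with library totals (-0.59). Pfkfb2, the isoform first described in heart and also present in islets, had 7.39, 6.59 and 6.15 CPM in high-glucose islets, against 20.3, 11.6 and 10.5 CPM in low-glucose islets. The groups did not overlap, and low-glucose replicate 1 was the highest. Pfkfb2 fell by 1.09 ± 0.28 (edgeR adjusted p = 0.0270). It no longer passed without low-glucose replicate 1 (-0.72), low-glucose replicate 2 (-1.199), high-glucose replicate 2 (-1.07) or high-glucose replicate 3 (-1.03), nor with totals without acinar genes (-0.89), hormone and granule gene scaling (-0.799) or library totals (-0.026). Exons of Pfkfb2 share 154 bases with Yod1 on the opposite strand and 1262 bases with Gm29427 on the same strand, and their counts over the 6 libraries were 741 and 2, against 842 for Pfkfb2, so its level is uncertain.

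Of the summed PFKFB transcripts per length, Pfkfb3 made up 74.6, 73.8 and 82.3% in high-glucose islets, against 25.6, 28.8 and 32.1% in low-glucose islets. Pfkfb4 made up 13.1, 11.5 and 9.05% in high-glucose islets, against 41.7, 45.8 and 41.7% in low-glucose islets. The leading isoform per length was therefore Pfkfb3 in each high-glucose library and Pfkfb4 in each low-glucose library. The merged exon lengths were 4875 bases for Pfkfb4, 7254 for Pfkfb2 and 7561 for Pfkfb3. In low-glucose counts Pfkfb2 had 242, 70 and 67, Pfkfb3 197, 83 and 86, and Pfkfb4 207, 85 and 72. By counts, Pfkfb4 led in low-glucose replicate 2 alone. Pfkfb2 took 11.9% ± 3.03 in high-glucose islets and 28.1% ± 4.07 in low-glucose islets (SD, n = 3 each). All 3 shares had non-overlapping groups and the smallest exact permutation p the design allows (0.10, adjusted 0.162).

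**Figure D2:**
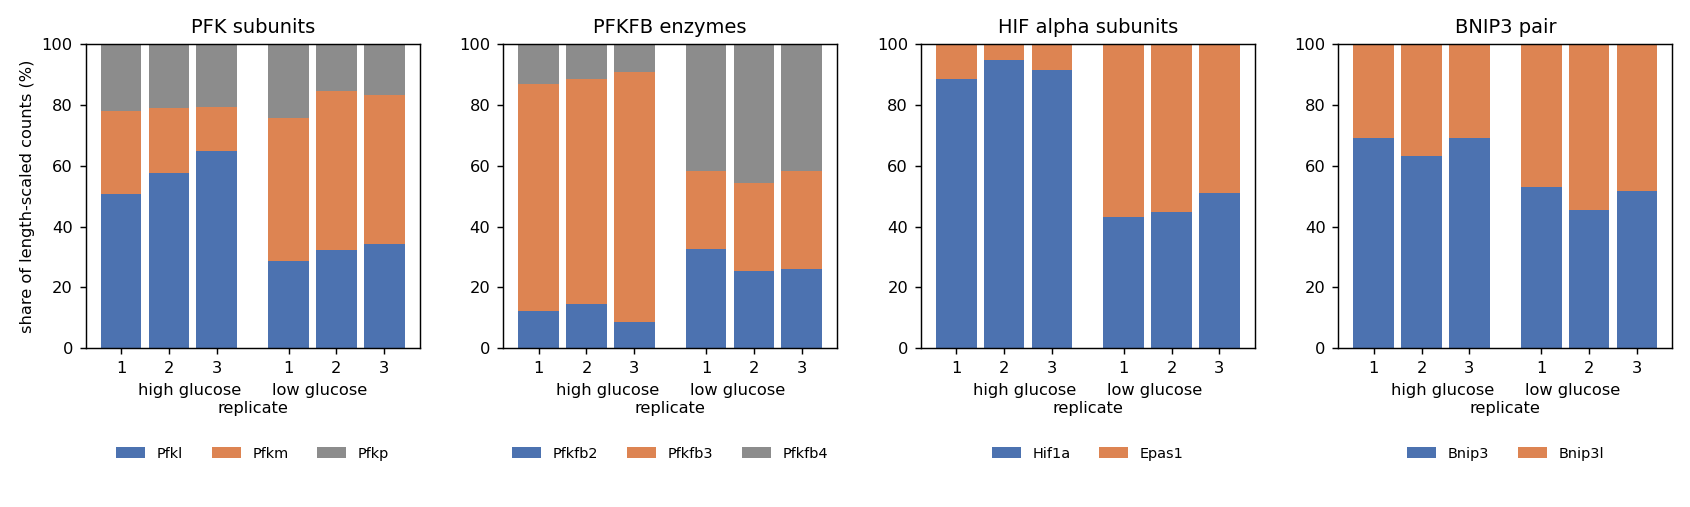
Share (%) of each isoform in the length-scaled counts of its family, per library, with high-glucose replicates on the left and low-glucose replicates on the right of each panel. Pfkl, Pfkfb3 and Hif1a hold the largest share at high glucose, Pfkm and Pfkfb4 hold it at low glucose, and Epas1 averages 8.46% at high and 53.7% at low glucose. The ranks of Pfkm and Pfkfb4 rest on their shorter exon lengths, and before that scaling Pfkm has the fewest PFK counts at low glucose.

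The stretches before the start sites show the letters that HIF is known to read. HIF binds a short core, spelled ACGTG or GCGTG here and searched on both strands, and ACGTG can overlap the E-box CACGTG. The 250 bases before the most upstream RefSeq start (GRCm38.p6) are printed 5′ to 3′ on the gene's strand, with core matches in capitals, for 4 genes whose stretch holds no annotated exon. Pgk1, Hif1a and P4ha2 stand for an enzyme, a HIF subunit and a HIF target whose rise held in all alternatives, and Pfkfb2 for the genes that fell. Pfkfb2 was the only fallen gene with such a stretch, and its call held in 8 of the 15 alternatives. Other rising genes met the same conditions, such as Eno1, whose stretch held 1 match. The Pgk1 stretch ends where the GENCODE gene begins, while the other 3 lie within the span of the GENCODE gene, between its exons. They lie at chrX:106186850-106187099 (plus strand), chr12:73907617-73907866 (plus), chr11:54100674-54100923 (plus) and chr1:130716049-130716298 (minus).
Pgk1: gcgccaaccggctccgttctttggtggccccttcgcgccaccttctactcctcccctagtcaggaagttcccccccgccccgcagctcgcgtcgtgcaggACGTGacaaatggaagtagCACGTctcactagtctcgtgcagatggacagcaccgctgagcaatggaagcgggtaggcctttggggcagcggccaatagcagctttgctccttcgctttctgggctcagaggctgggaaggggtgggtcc
Hif1a: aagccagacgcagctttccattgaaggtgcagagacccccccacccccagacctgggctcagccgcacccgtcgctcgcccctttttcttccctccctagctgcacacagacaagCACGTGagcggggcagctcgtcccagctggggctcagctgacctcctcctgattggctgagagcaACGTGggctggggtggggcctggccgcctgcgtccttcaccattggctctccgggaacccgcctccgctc
P4ha2: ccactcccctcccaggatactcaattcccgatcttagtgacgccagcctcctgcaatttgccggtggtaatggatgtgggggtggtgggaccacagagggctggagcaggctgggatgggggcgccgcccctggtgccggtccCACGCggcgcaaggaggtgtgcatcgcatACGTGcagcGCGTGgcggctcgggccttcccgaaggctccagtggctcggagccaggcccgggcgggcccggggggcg
Pfkfb2: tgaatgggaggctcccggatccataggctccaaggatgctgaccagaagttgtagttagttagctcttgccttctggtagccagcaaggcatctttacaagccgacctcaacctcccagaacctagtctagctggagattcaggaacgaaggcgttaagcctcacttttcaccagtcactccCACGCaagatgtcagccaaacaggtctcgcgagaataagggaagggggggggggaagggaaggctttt

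Pgk1 held 2 core matches, beginning 150 and 131 bases before the start, both of the ACGTG form. Hif1a held 3, beginning 135, 134 and 70 bases before, where the first pair overlap in an E-box, and P4ha2 held 3, beginning 107, 78 and 69 bases before. Pfkfb2 held 1, beginning 68 bases before. A stretch was found for 30 of the 34 genes (not for Epas1, Ndrg1, Plod2 and Bnip3l), and 23 of the 30 (76.7%) held at least 1 core match, beside 55.9% of 10799 tested genes. The share was 83.3% (10 of 12) for genes that rose, 2 of 2 for those that fell and 68.8% (11 of 16) for those that did not pass. The stretches of these groups had a median of 63.4, 51.6 and 58.2% G and C letters, beside 59.6% for tested genes. At least 2 matches were held by 46.7% of the 30 and 27.3% of tested genes, and the E-box by 3 of the 30 and 8.33% of tested genes. An E-box holds the core on both strands and so counts as 2 matches, as in Pfkm, whose 2 matches are 1 E-box. A match describes letters and is not a bound site.

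From triose phosphate to enolase, 5 of 6 genes rose and the sixth did not pass. Pgk1 (chrX:106187100-106203699, plus strand) encodes phosphoglycerate kinase, the first enzyme of the pathway that makes ATP, and had 64.7, 58.4 and 83.7 CPM in high-glucose islets, against 23.8, 23.6 and 24.8 CPM in low-glucose islets. The low-glucose libraries lay close together, and every high-glucose library was far above them. Pgk1 rose by 1.52 ± 0.17 (edgeR adjusted p = 0.00151).

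Eno1 (chr4:150236721-150248879, plus strand), the ubiquitous enolase, had 79.1, 81.9 and 110.4 CPM in high-glucose islets, against 37.1, 33.1 and 24.7 CPM in low-glucose islets. The groups were widely separated, and Eno1 rose by 1.51 ± 0.21 (edgeR adjusted p = 0.00305). Pgam1 (chr19:41911923-41918660, plus strand), phosphoglycerate mutase, was counted far less, at 9.30, 8.14 and 11.8 CPM in high-glucose islets, against 3.85, 4.49 and 3.77 CPM in low-glucose islets. It rose by 1.28 ± 0.24 (edgeR adjusted p = 0.00843), again with no overlap of the groups.

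Tpi1, triose-phosphate isomerase, had 159, 182 and 231 CPM in high-glucose islets, against 113, 106 and 93.7 CPM in low-glucose islets. Each high-glucose value exceeded each low-glucose value, and Tpi1 rose by 0.87 ± 0.19 (edgeR adjusted p = 0.0163). It no longer passed without low-glucose replicate 2 (0.89), low-glucose replicate 3 (0.801) or high-glucose replicate 3 (0.71). Gapdh, the dehydrogenase often used as a reference gene, had 159, 119.9 and 159 CPM in high-glucose islets, against 94.99, 70.6 and 62.9 CPM in low-glucose islets. The groups did not overlap, and Gapdh rose by 0.94 ± 0.21 (edgeR adjusted p = 0.0174), 1.91-fold. The Gapdh call was lost when the same 3 libraries were left out (0.89, 0.82 and 0.87), and both were lost with scaling to hormone and granule genes (1.19 for Tpi1 and 1.1998 for Gapdh).

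Eno2, the enolase of neurons and endocrine cells, had 37.96, 15.3 and 16.6 CPM in high-glucose islets, against 16.9, 10.1 and 9.91 CPM in low-glucose islets. High-glucose replicate 1 was more than 2-fold above the other two of its group, and the groups overlapped. Its log2 fold change of 0.91 ± 0.40 did not pass (edgeR adjusted p = 0.131) but did with the replicate block (0.85, edgeR adjusted p = 0.0158), and without high-glucose replicate 1 it was 0.35 (edgeR adjusted p = 0.312). Of enolase transcripts per length, Eno2 held 35.4, 17.6 and 14.7% in high-glucose islets, against 34.3, 25.95 and 31.4% in low-glucose islets, and the groups overlapped (exact permutation p = 0.4). Per length, Tpi1 was the most abundant of these genes, at 69.3 CPM per kilobase in high-glucose islets and 37.9 in low-glucose islets, and Gapdh followed at 35.3 CPM per kilobase in high-glucose islets and 18.4 in low-glucose islets. Retrocopies that carry the names of Gapdh, Pgk1 and Pgam1, and the gene Eno1b, held 0 or 1 count each over all libraries. Copies under other names were not searched, and sequence identity was not measured. How reads matching several copies were counted is not stated in the sources used here, so these levels are uncertain.

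Gys1, the muscle-type glycogen synthase that stores glucose as glycogen, had 31.2, 65.4 and 60.3 CPM in high-glucose islets, against 12.5, 19.4 and 24.1 CPM in low-glucose islets. High-glucose replicate 1 was the lowest of its group and still above every low-glucose library. Gys1 rose by 1.498 ± 0.34 (edgeR adjusted p = 0.0174). Gys1 no longer passed without low-glucose replicate 1 (1.26), low-glucose replicate 2 (1.53) or high-glucose replicate 3 (1.38), and 310 exonic bases are shared with Ruvbl2 on the opposite strand.

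**Figure D3:**
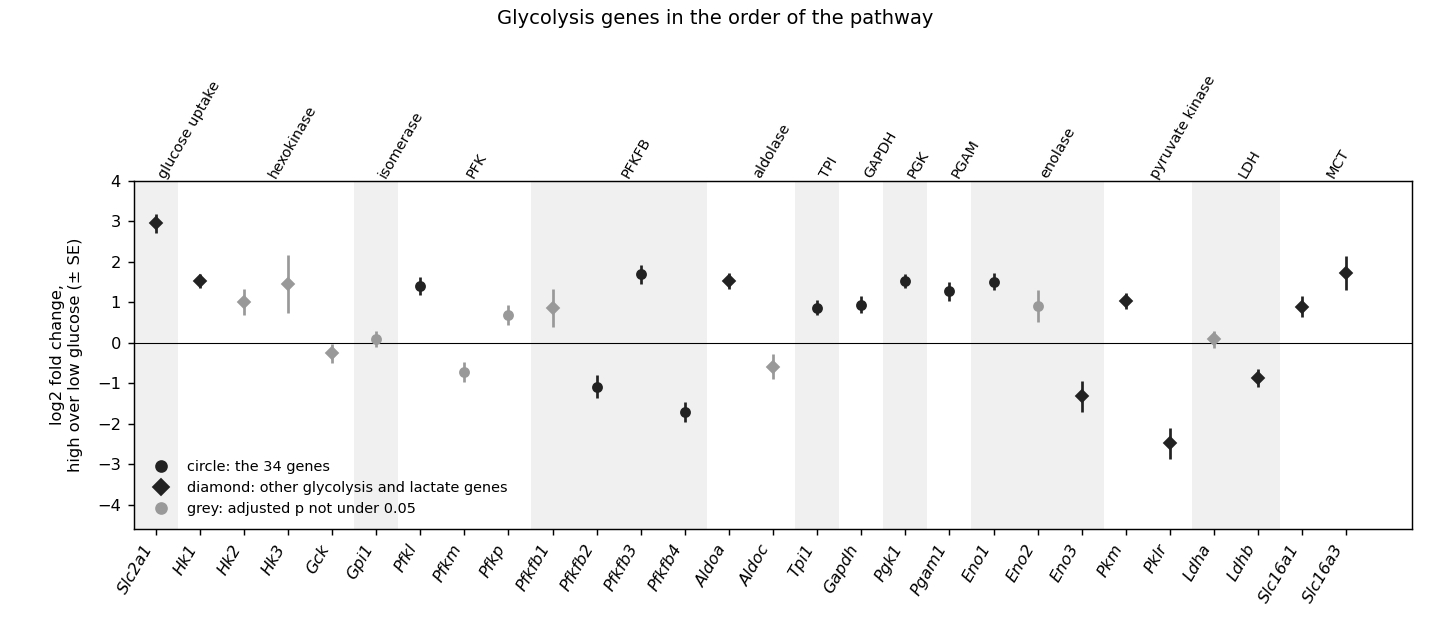
Log2 fold change (high over low glucose, ± SE from edgeR) of glycolysis genes in pathway order; circles are among the 34 genes, diamonds are other glycolysis and lactate genes (not all of the list is drawn), and grey marks an adjusted p not under 0.05. Among the black points drawn, Pfkfb2, Pfkfb4, Eno3, Pklr and Ldhb lie below 0 and the others above it.

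The alpha subunits of HIF moved apart. Hif1a (chr12:73901375-73947530, plus strand), the HIF-1 alpha subunit, had 189, 197 and 181 CPM in high-glucose islets, against 63.4, 54.7 and 68.1 CPM in low-glucose islets. The high-glucose libraries lay close together and none came near the low-glucose ones. Hif1a rose by 1.61 ± 0.16 (edgeR adjusted p = 0.00116), 3.05-fold, the smallest adjusted p of the 34 genes. Scaled to library totals the values were 337, 270.1 and 254 in high-glucose islets, against 59.5, 31.05 and 37.03 in low-glucose islets, in CPM, again without overlap.

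Epas1 (chr17:86753700-86833410, plus strand), the HIF-2 alpha subunit, best known from endothelial cells, had 23.5, 10.5 and 15.9 CPM in high-glucose islets, against 79.01, 63.7 and 62.1 CPM in low-glucose islets. Every high-glucose value was below every low-glucose value. Epas1 fell by 2.03 ± 0.29 on the log2 scale (edgeR adjusted p = 0.00321), 4.10-fold lower than in low-glucose islets. Its call was lost with library totals (-0.87, edgeR adjusted p = 0.109). Of 13 endothelial markers 2 fell (15.4%, near the 14.2% of all tested genes) and none rose. Those that fell were Kdr and Plvap, named after their values were seen. With library totals 2 of the 13 were higher and 0 lower, beside 59.6% and 4.49% of all tested genes. The summed level of the 13 was 197 to 414 CPM in high-glucose islets and 345 to 427 CPM in low-glucose islets. Epas1 was equal to 5.67, 5.36 and 5.62% of that sum in high-glucose islets, against 18.5, 18.5 and 15.3% in low-glucose islets, a ratio chosen after its values were seen.

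Of the transcripts of both alpha subunits per length, Epas1 held 11.6, 5.33 and 8.45% in high-glucose islets, against 56.8, 55.1 and 49.04% in low-glucose islets. Per length, Epas1 was thus about as abundant as Hif1a at low glucose and the minor alpha subunit at high glucose, with non-overlapping shares (exact permutation p = 0.10, the smallest possible, adjusted 0.162). Arnt, the shared beta subunit, had 52.1, 46.7 and 43.2 CPM in high-glucose islets, against 35.7, 35.6 and 38.1 CPM in low-glucose islets. Its groups did not overlap, but the log2 fold change of 0.38 ± 0.13 did not pass (edgeR adjusted p = 0.0708). It passed with library totals (1.55) and with totals that leave out acinar genes (0.61).

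None of the oxygen sensors nor Vhl passed the threshold. Egln1, the main prolyl hydroxylase of HIF in most cells, had 48.99, 48.2 and 58.9 CPM in high-glucose islets, against 38.6, 47.4 and 51.7 CPM in low-glucose islets. The groups overlapped (log2 fold change 0.18 ± 0.16, edgeR adjusted p = 0.434). Egln2 had 53.8, 62.2 and 56.5 CPM in high-glucose islets, against 51.97, 69.5 and 69.7 CPM in low-glucose islets, also overlapping, with a log2 fold change of -0.15 ± 0.16 (edgeR adjusted p = 0.540). Its sign was positive under 3 other scalings, at 1.05 with library totals, 0.092 with totals without acinar genes and 0.13 with hormone and granule genes.

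Egln3, itself a HIF target, had the largest SE of the 34 genes, with 10.97, 1.65 and 6.25 CPM in high-glucose islets, against 7.62, 6.48 and 2.04 CPM in low-glucose islets. High-glucose replicates 1 and 2 were its highest and lowest values of all 6, and the log2 fold change was 0.21 ± 0.69 (edgeR adjusted p = 0.845). Its sign turned without high-glucose replicate 1 (-0.48) or low-glucose replicate 3 (-0.15). Vhl, the recognition subunit of the ubiquitin ligase for HIF alpha, had 13.2, 11.9 and 13.4 CPM in high-glucose islets, against 9.79, 12.97 and 11.3 CPM in low-glucose islets. The groups overlapped, with a log2 fold change of 0.18 ± 0.18 (edgeR adjusted p = 0.494). Of the Egln transcripts per length, Egln1 held 38.7% ± 2.99 in high-glucose islets and 33.98% ± 1.75 in low-glucose islets (SD, n = 3 each). Egln2 held 55.04% ± 5.40 in high-glucose islets and 60.4% ± 2.36 in low-glucose islets (SD, n = 3 each), and Egln3 held 6.29% ± 4.72 in high-glucose islets and 5.61% ± 3.51 in low-glucose islets (SD, n = 3 each). Among these 3, the Egln1 shares alone did not overlap, with 4.69 percentage points between the means (exact permutation p = 0.10, adjusted 0.162).

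Of the 3 secreted or cell surface HIF targets none passed. Vegfa, the angiogenic factor that islet cells supply to their capillaries, was abundant, at 165, 141 and 169 CPM in high-glucose islets, against 211, 179 and 142 CPM in low-glucose islets. The groups overlapped, and the log2 fold change was -0.16 ± 0.20 (edgeR adjusted p = 0.573). Its sign was positive with library totals (0.94), totals without acinar genes (0.044) and hormone and granule gene scaling (0.11).

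Adm, the vasodilator peptide adrenomedullin, was scarce, at 3.29, 1.60 and 3.12 CPM in high-glucose islets, against 1.42, 0.997 and 0.786 CPM in low-glucose islets. These rest on 93, 32 and 62 counts in high-glucose islets, against 17, 6 and 5 counts in low-glucose islets. Each high-glucose library was above each low-glucose library in CPM, and the difference of 1.28 ± 0.43 did not pass (edgeR adjusted p = 0.0617). It passed with the replicate block (1.28, edgeR adjusted p = 0.0445) and without high-glucose replicate 2 (1.53). Car9, the carbonic anhydrase often used as a tissue marker of hypoxia, had 2.02, 10.03 and 11.6 CPM in high-glucose islets, against 13.98, 15.5 and 7.71 CPM in low-glucose islets. High-glucose replicate 1 was the lowest of all 6, the groups overlapped, and the log2 fold change was -0.66 ± 0.59 (edgeR adjusted p = 0.441), or -0.20 without that library.

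Among HIF targets of the mitochondrion, Bnip3 rose and Bnip3l and Higd1a did not pass. Bnip3 (chr7:138890836-138909519, minus strand), a receptor that sends mitochondria to autophagy, had 29.1, 24.3 and 44.7 CPM in high-glucose islets, against 17.3, 15.1 and 19.3 CPM in low-glucose islets. All high-glucose values were above all low-glucose values, and Bnip3 rose by 0.92 ± 0.25 (edgeR adjusted p = 0.0316). It no longer passed without low-glucose replicate 1 (0.93), 2 (0.84) or 3 (1.01) or high-glucose replicate 3 (0.63), by limma-voom (0.87) and with hormone and granule gene scaling (1.22).

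Bnip3l, the related receptor also called NIX, had 22.3, 24.1 and 34.2 CPM in high-glucose islets, against 26.2, 31.1 and 30.98 CPM in low-glucose islets. The groups overlapped, and the log2 fold change was -0.13 ± 0.20 (edgeR adjusted p = 0.661), with a positive sign under library totals (1.03), totals without acinar genes (0.10) and hormone and granule gene scaling (0.17). Of the pair's transcripts per length, Bnip3l held 30.99, 36.8 and 31.00% in high-glucose islets, against 47.02, 54.7 and 48.5% in low-glucose islets. The shares did not overlap (exact permutation p = 0.10, adjusted 0.162). Higd1a, a protein of the respiratory chain induced by hypoxia, had 7.71, 14.3 and 17.3 CPM in high-glucose islets, against 10.1, 10.6 and 12.1 CPM in low-glucose islets. Its groups overlapped, with high-glucose replicate 1 the lowest of all (log2 fold change 0.26 ± 0.30, edgeR adjusted p = 0.562, and 0.53 without that library).

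Of the 3 collagen-modifying targets 2 rose and 1 did not pass. P4ha2 (chr11:54100095-54131665, plus strand), a catalytic subunit of the collagen prolyl 4-hydroxylase, had 35.7, 50.7 and 61.4 CPM in high-glucose islets, against 15.2, 12.97 and 20.9 CPM in low-glucose islets. The groups were well apart, and P4ha2 rose by 1.59 ± 0.26 (edgeR adjusted p = 0.00508), 3.01-fold. P4ha1 (chr10:59323296-59373304, plus strand), the other catalytic subunit measured, had 106, 81.1 and 114 CPM in high-glucose islets, against 44.9, 28.9 and 63.1 CPM in low-glucose islets. The groups did not overlap and P4ha1 rose by 1.14 ± 0.29 (edgeR adjusted p = 0.0247). It no longer passed without low-glucose replicate 1 (1.13), low-glucose replicate 2 (0.90) or high-glucose replicate 3 (1.04).

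Plod2, the lysyl hydroxylase of collagen cross-links, was low, at 13.3, 3.15 and 6.55 CPM in high-glucose islets, against 3.43, 2.49 and 1.42 CPM in low-glucose islets. High-glucose replicate 1 stood highest, and high-glucose replicate 2 was below low-glucose replicate 1. The difference of 1.61 ± 0.57 did not pass (edgeR adjusted p = 0.0715), but it did with the replicate block (1.54, edgeR adjusted p = 0.0259), by DESeq2 (1.62, DESeq2 adjusted p = 0.0255), with hormone and granule gene scaling (1.69), with no filter (1.70) and without high-glucose replicate 2 (1.98). Without high-glucose replicate 1 the difference was 0.94 (edgeR adjusted p = 0.139), and it did not pass by limma-voom (1.45, limma-voom adjusted p = 0.213). Of the P4ha pair per length, P4ha2 held 24.5% ± 5.71 in high-glucose islets and 19.7% ± 2.72 in low-glucose islets (SD, n = 3 each), with overlapping groups (exact permutation p = 0.3). Pericyte, stellate cell and fibroblast markers, which include collagen genes, had lower sums in TMM-scaled CPM in each high-glucose library than in each low-glucose library. These sums were 50.1 to 288 CPM in high-glucose islets and 330 to 432 CPM in low-glucose islets. As shares of counts the groups overlapped, at 0.00685 to 0.0514% in high-glucose islets and 0.0187 to 0.0379% in low-glucose islets. With TMM 4 of the 12 markers were called lower (33.3%, beside 14.2% of all tested genes), and with library totals 1 (8.33%, beside 4.49%).

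The remaining 4 targets did not pass. Ndrg1, a stress-responsive gene strongly induced by low oxygen, had 171, 375 and 376 CPM in high-glucose islets, against 134, 222 and 265 CPM in low-glucose islets. Replicate 1 was the lowest in both groups, the groups overlapped, and the log2 fold change was 0.57 ± 0.37 (edgeR adjusted p = 0.287), with 0.86 without high-glucose replicate 1 and 0.33 without low-glucose replicate 1. Mxi1, an antagonist of Myc, had 22.9, 35.3 and 38.2 CPM in high-glucose islets, against 36.5, 51.5 and 38.2 CPM in low-glucose islets, with overlapping groups and a log2 fold change of -0.39 ± 0.23 (edgeR adjusted p = 0.249) that turned positive with library totals (0.76). Kdm3a, a histone H3 lysine 9 demethylase, had 27.8, 29.7 and 26.2 CPM in high-glucose islets, against 25.5, 24.8 and 18.2 CPM in low-glucose islets. Its groups were apart by a narrow margin, and the log2 fold change was 0.29 ± 0.17 (edgeR adjusted p = 0.251). Ankrd37, an ankyrin repeat gene, had 3.29, 1.90 and 3.58 CPM in high-glucose islets, against 2.59, 1.99 and 2.20 CPM in low-glucose islets, with overlapping groups (0.36 ± 0.35, edgeR adjusted p = 0.481) and 57 and 349 exonic bases shared with Ufsp2 and Lrp2bp on the opposite strand. Ufsp2 had 5780 counts over the 6 libraries, against 259 for Ankrd37, so the level of Ankrd37 is uncertain.

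**Figure D4:**
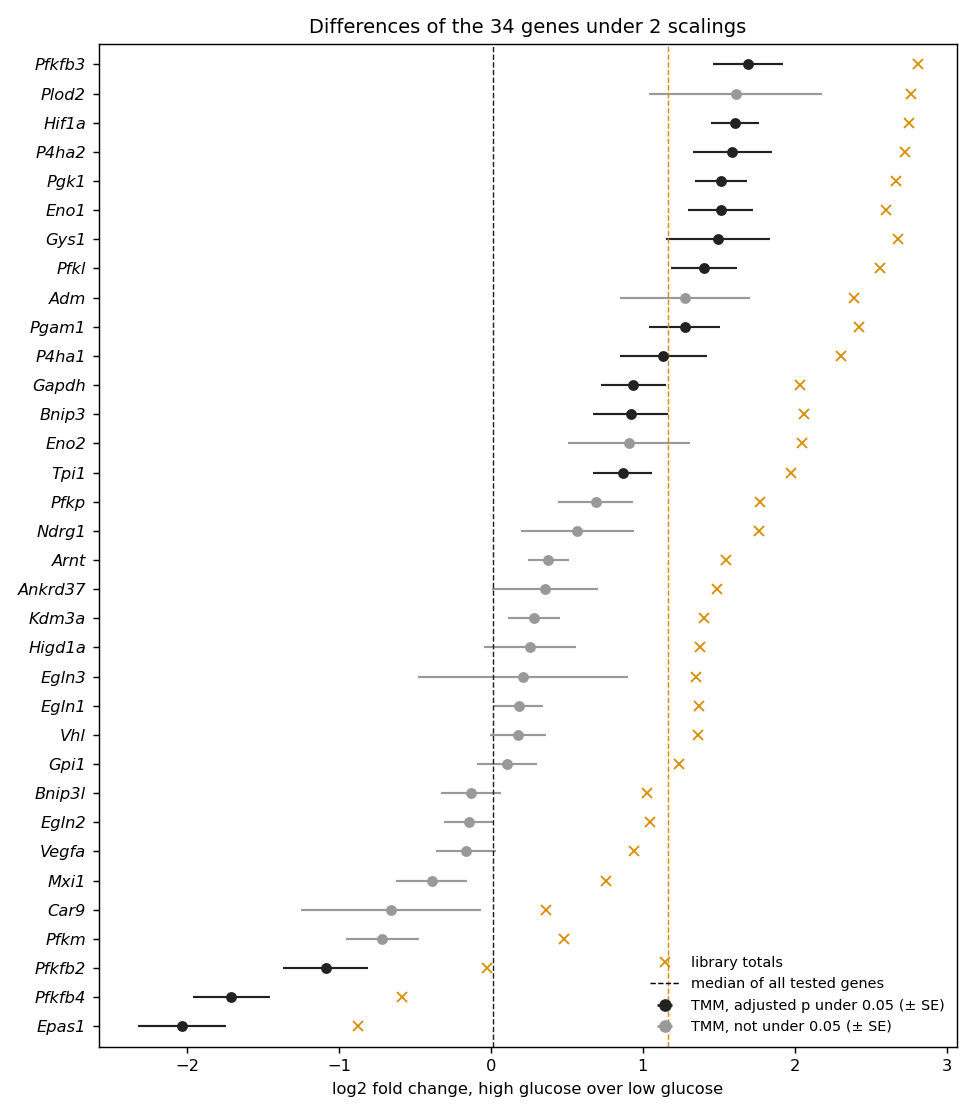
Log2 fold change (high over low glucose) of the 34 genes, ordered by value; points with SE bars are the TMM-scaled edgeR fit (black, adjusted p under 0.05; grey, not), orange crosses the values with library totals, and dashed lines the median of all tested genes in each, 0.01 and 1.16. The order runs from Epas1 and Pfkfb4 at the low end to Plod2 and Pfkfb3 at the high end, and library totals shift every gene upwards.

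Other genes of the same pathways were counted from 4 further lists, which share a few genes. Of 18 other glycolysis and lactate genes tested, 6 rose and 4 fell (33.3% and 22.2%, beside 13.3% and 14.2% of all tested genes), with a median log2 fold change of 0.47. With library totals 13 were higher and 2 lower (72.2% and 11.1%, beside 59.6% and 4.49%). Slc2a1, the glucose transporter GLUT1, averaged 77.1 ± 18.99 CPM in high-glucose islets and 10.1 ± 1.77 CPM in low-glucose islets (SD, n = 3 each) and rose by 2.95 ± 0.24 (edgeR adjusted p = 6.39e-04). Hk1, a hexokinase, rose by 1.53 ± 0.18 (edgeR adjusted p = 0.00169) and the aldolase gene Aldoa by 1.53 ± 0.20 (edgeR adjusted p = 0.00259). Calls fell in this list as over all genes, to 3 higher and 1 lower without low-glucose replicate 2, to 4 higher and 2 lower without high-glucose replicate 3, and to 5 higher and 2 lower without low-glucose replicate 1 or high-glucose replicate 2. The last pair of fits called 8.22% and 7.68% of all tested genes higher and 11.4% and 9.96% lower. For the lists that follow, those shares were 9% and 10.8% without low-glucose replicate 3, and 19.9% and 20.2% without high-glucose replicate 1.

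Of 31 other HIF targets tested, 9 rose and 5 fell (29.0% and 16.1%), with a median of 0.36. With library totals 22 (71.0%) were higher and 0 lower, beside 59.6% and 4.49% of all tested genes. Slc2a1 and Aldoa, which rose, are among several genes held by this list and by the glycolysis and lactate list, so the counts are not separate. Cited2, one of those that fell, is held by the list of HIF regulators as well. Bhlhe40, a transcriptional repressor induced by HIF, averaged 106 ± 19.4 CPM in high-glucose islets and 25.2 ± 5.07 CPM in low-glucose islets (SD, n = 3 each) and rose by 2.07 ± 0.22 (edgeR adjusted p = 0.00134). The number that fell was 2 without any of the 3 low-glucose replicates or without high-glucose replicate 2, and 3 without high-glucose replicate 3.

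Of 15 other HIF regulators, 1 rose and 3 fell (6.67% and 20%), with a median of 0.17. With library totals 10 (66.7%) were higher and 0 lower, beside 59.6% and 4.49% of all tested genes. Cited2, which competes with HIF alpha for its coactivator, averaged 32.3 ± 3.99 CPM in high-glucose islets and 71.4 ± 6.74 CPM in low-glucose islets (SD, n = 3 each) and fell by 1.14 ± 0.15 (edgeR adjusted p = 0.00261). Os9, an endoplasmic reticulum lectin that has been linked to HIF hydroxylation, fell by 1.25 ± 0.24 (edgeR adjusted p = 0.00991), and Cited4 fell by 1.32 ± 0.34 (edgeR adjusted p = 0.0259). With library totals these were 0.037, -0.016 and -0.10 and none passed, nor did they with hormone and granule gene scaling. Cited4 no longer passed without low-glucose replicate 2 (-1.10), low-glucose replicate 3 (-1.22) or high-glucose replicate 3 (-1.31), and the count of those that rose was 4 without high-glucose replicate 1 and 0 without high-glucose replicate 2 or any 1 low-glucose library.

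Of 18 other glycogen genes, 1 rose and 3 fell (5.56% and 16.7%), with a median of -0.05. With library totals 12 (66.7%) were higher and 0 lower, near the 59.6% of all tested genes. Pgm1, a gene of the phosphoglucomutase family, rose by 1.03 ± 0.16 (edgeR adjusted p = 0.00483). Phkb, a subunit of the kinase that activates glycogen breakdown, fell by 0.91 ± 0.15 (edgeR adjusted p = 0.00565), and Epm2a, the glycogen phosphatase laforin, fell by 0.73 ± 0.21 (edgeR adjusted p = 0.0397). With library totals Phkb was at 0.25 and Epm2a at 0.41, and neither passed with hormone and granule gene scaling. Epm2a also did not pass with totals without acinar genes (-0.51) or with no filter (-0.63), while Phkb kept its call in both. The number that fell was 1 without any of the 3 low-glucose replicates or without high-glucose replicate 2 or 3, and Epm2a lost its call in each of those 5 fits (-0.63 to -0.77).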

How the data were processed

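The deposited table holds raw read counts per gene, 1 column per library, made by the authors with STAR 2.7.3a and HTSeq 0.6.1p1 on GRCm38, per the submitters' processing notes. The sources used here name no annotation release, strand setting or molecular barcodes. Names and coordinates came from GENCODE M21. The 495 genes left without a name held 0.0141% of counts. Library totals ranged from 10596020 to 15846235 counts, and precision estimates from counts cover counting error only. No pair of libraries agreed within sampling noise (lowest within-group chi-square per degree of freedom, 17.4).

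The filterByExpr function (minimum count 10, minimum total 15) kept 13996 genes. These were tested, high against low glucose, by quasi-likelihood in edgeR 4.0.16 (R 4.3.3) after TMM scaling, with Benjamini-Hochberg adjustment. Each SE equals the size of the log2 fold change over the root of its F statistic. The fit was tested on simulated data. Shares use counts divided by merged exon length, with two-sided exact permutation tests. Genes and lists were chosen with earlier results of these data known. Each member that passed, each HIF or sensor gene and each whose call moved with the scaling is given in every library; of other lists, up to 3 called genes with the smallest p and no overlap of the libraries are named, except those not reported here.

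Replicate numbers in the labels are shared by the groups, and no label states a pairing. Deviations from the group means correlated at 0.40, 0.26 and 0.25 for same-numbered libraries and at -0.31 to 0.07 for others, so a blocked fit is given beside results it changes. Such deviations cancel within a group, so positive values for same-numbered libraries pull the others down. The contrast between them is not independent evidence of pairing.

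Alternatives were DESeq2 size factors, library totals, totals without acinar genes, scaling to 20 hormone and granule genes, no filter, at least 1 CPM in 3 libraries, DESeq2 1.42.0, limma-voom (limma 3.58.1), the block, and each library left out. Promoter sequences came from RefSeq (GRCm38.p6). Figures were drawn with matplotlib 3.10.9.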

Additional observations from a re-analysis of the deposited data

How the results depend on the processing

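Library totals changed most: 8965 genes in all, 28 of the 34 higher and 0 lower, with signs turned for Pfkm (0.48), Egln2 (1.05), Vegfa (0.94), Car9 (0.36), Bnip3l (1.03) and Mxi1 (0.76). Scaling to hormone and granule genes called 2072 genes and turned Egln2 (0.13), Vegfa (0.11) and Bnip3l (0.17), and totals without acinar genes turned the same 3 (0.092, 0.044 and 0.10). With 1 library left out, calls over all genes ranged from 1761 (without low-glucose replicate 2) to 5602 (without high-glucose replicate 1), with 1913 without high-glucose replicate 3 and 2469 without high-glucose replicate 2. Of the 34 genes 7 to 14 were then higher and 2 to 4 lower. With 1 library left out, Gpi1 ranged from -0.056 (without high-glucose replicate 3) to 0.24 (without high-glucose replicate 2), and Egln3 from -0.48 (without high-glucose replicate 1; -0.15 without low-glucose replicate 3) to 0.66 (without high-glucose replicate 2). The difference in the Egln3 share ranged likewise from -1.74 to 2.97 percentage points, with -1.17 without low-glucose replicate 3. No other share turned with a library left out or with the longest transcript as length. The replicate block called 4670 genes, 16 of the 34 higher and 4 lower; it added Pfkm, Pfkp, Eno2, Adm and Plod2 and changed no other of the 34 calls. DESeq2 called 13 higher and 4 lower, limma-voom 11 and 3, and no filter 14 and 3. The causes were not tested. Among the 34 genes Adm and Ankrd37 had the fewest counts, 215 and 259 over the 6 libraries.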
